A study of Homo sapiens with 16 samples.

Results

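The genes described here were the collagen alpha chains, the laminin chains and fibronectin. They were chosen from the count table by symbol alone: a row was taken if its symbol was COL, a number, A and a number, or LAMA, LAMB or LAMC with a number, or FN1, and if it lay on an autosome. Antisense rows were left out, and the rule uses no expression value, although the set was chosen with earlier results of these data known. The rule gave 55 of the 26485 rows of the table, made up of 42 collagen genes, 12 laminin genes and FN1. Another 2 rows with matching symbols, COL4A5 and COL4A6, lie on the X chromosome and were left out.

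Total RNA was sequenced from 2 human cancer cell lines, PC3, derived from prostate cancer, and HeyA8, derived from ovarian cancer, both labelled wt. Cells of each line were mock-treated or transfected with siNT1 (the non-targeting control), siGGGGGC (an siRNA named for its 6mer seed) or siCAG (an siRNA built on CAG repeats). RNAiMax was the transfection reagent, and whether mock cells received it was not settled here. RNA was taken after 24 or 48 h. The titles and count columns of the siGGGGGC libraries read siMxy_3AB, and their group was taken from the treatment label, which names siGGGGGC. The labels give a dose of 1 nM, whereas the methods of the study name a higher dose for its RNA-seq experiment, so the dose behind these libraries was not settled here. Each line, siRNA and time point had 1 library, 16 in all, so the 24 and 48 h libraries served as the 2 replicates of a group. Nothing in the labels says that they came from separate cultures. The methods of the study, written for the higher dose, describe duplicate wells, some lysed at 24 h and the remaining ones at 48 h. Whether this holds for these libraries was not settled, and the p-values measure the spread between these libraries only. The PC3 libraries held 27937092 to 29971612 counts and the HeyA8 libraries 29128446 to 31790209 counts. No 2 libraries held identical counts.

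Collagens are trimers of alpha chains that carry the repeat Gly-X-Y, in which X and Y are often proline and hydroxyproline. Fibrillar collagens form the cables of connective tissue, type IV collagen forms the network of basement membranes, and type VI collagen forms beaded microfilaments near the cell surface. Laminins are cross-shaped trimers of 1 alpha, 1 beta and 1 gamma chain that cells bind through integrins, and fibronectin is the dimeric glycoprotein that cells assemble into fibrils on their surface. Laminins and many collagens, such as types IV, V and VI, are built from chains of different genes, so the levels of partner chains are given side by side below.

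The line labels were checked against marker genes. In PC3 the keratins KRT8, KRT18 and KRT7 had medians of 211, 249 and 502 CPM (the count divided by the TMM-normalised library size of that library and brought to a common scale for all 16), and in HeyA8 medians of 750.1, 539 and 342 CPM. The other epithelial markers were higher in PC3, where EPCAM had a median of 21.4 and CDH1 one of 14.1 CPM, against 0.887 and 0.0369 CPM in HeyA8. The prostate luminal markers KLK3 and KLK2 were at 0 in all 8 PC3 libraries, so both were absent in cells labelled prostate. Of the ovarian markers, PAX8, WT1 and MUC16 had medians of 166, 15.6 and 0.0181 CPM in HeyA8 and of 4.28, 9.51 and 0.421 CPM in PC3. The mesenchymal markers VIM, CDH2 and ZEB1 had medians of 6899, 159 and 163 CPM in HeyA8 and of 915, 187 and 22.2 CPM in PC3. Of the fibroblast markers, DCN, LUM and THY1 had medians under 1 CPM in both lines, PDGFRB had medians of 0.197 and 0.288 CPM in PC3 and HeyA8, and PDGFRA had medians of 2.66 and 0 CPM. Of the endothelial markers, CDH5 had medians of 0 and 6.65 CPM in PC3 and HeyA8, PECAM1 of 3.24 and 0.314 CPM and VWF of 0.0148 and 0.326 CPM. Of the leukocyte markers, PTPRC and CD3E reached at most 0.370 CPM in any library, whereas CD68, a lysosomal protein of macrophages that other cells also make, had medians of 24.3 and 57.7 CPM.

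The 55 genes took 0.532 to 1.05% of all counts in the PC3 libraries and 0.344 to 1.42% in the HeyA8 libraries. The make-up differed between the lines. Collagens accounted for 54.4 to 72.1% of the counts of the 55 genes in PC3 but for 7.88 to 23.5% in HeyA8. Type VI collagen alone took 39.0 to 59.4% in PC3 and 1.73 to 6.64% in HeyA8, while FN1 took 4.42 to 8.29% in PC3 and 34.2 to 76.5% in HeyA8. At a mean of at least 20 CPM over the 8 libraries of a line there were 19 genes in PC3 and 16 in HeyA8, another 11 genes in each line had a mean of 1 to 20 CPM, and 25 genes in PC3 and 28 in HeyA8 stayed under 1 CPM. COL22A1 and COL6A5 were among the 4 genes with no count in any PC3 library and the 5 with none in any HeyA8 library.

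In mock-treated cells, 17 of the 39 genes tested were higher in PC3 than in HeyA8 and 10 were higher in HeyA8 (edgeR quasi-likelihood test over all 16 libraries, Benjamini-Hochberg adjusted p under 0.05). These 27 genes were 69.2% of the 39, beside 45.5% of all 15887 genes tested, of which 25.6% were higher and 19.9% lower in PC3. The other 16 of the 55 genes did not pass the filter on low counts. The median log2 fold change (PC3 over HeyA8) was 0.82 for the 39 genes, also with genes at 0 in HeyA8 set to their lower bound, and 0.09 for all genes. Leaving out 1 mock library at a time gave 20 to 25 calls of 40 members tested, beside 26.3 to 34.9% of all genes. Of the genes named below, COL1A1, COL21A1, COL4A2, COL9A3 and LAMB3 lost their call without any of at least 3 of the 4 mock libraries, and COL2A1, COL3A1 and LAMC3 lost theirs without the 24 h mock library of HeyA8.

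**Figure D1:**
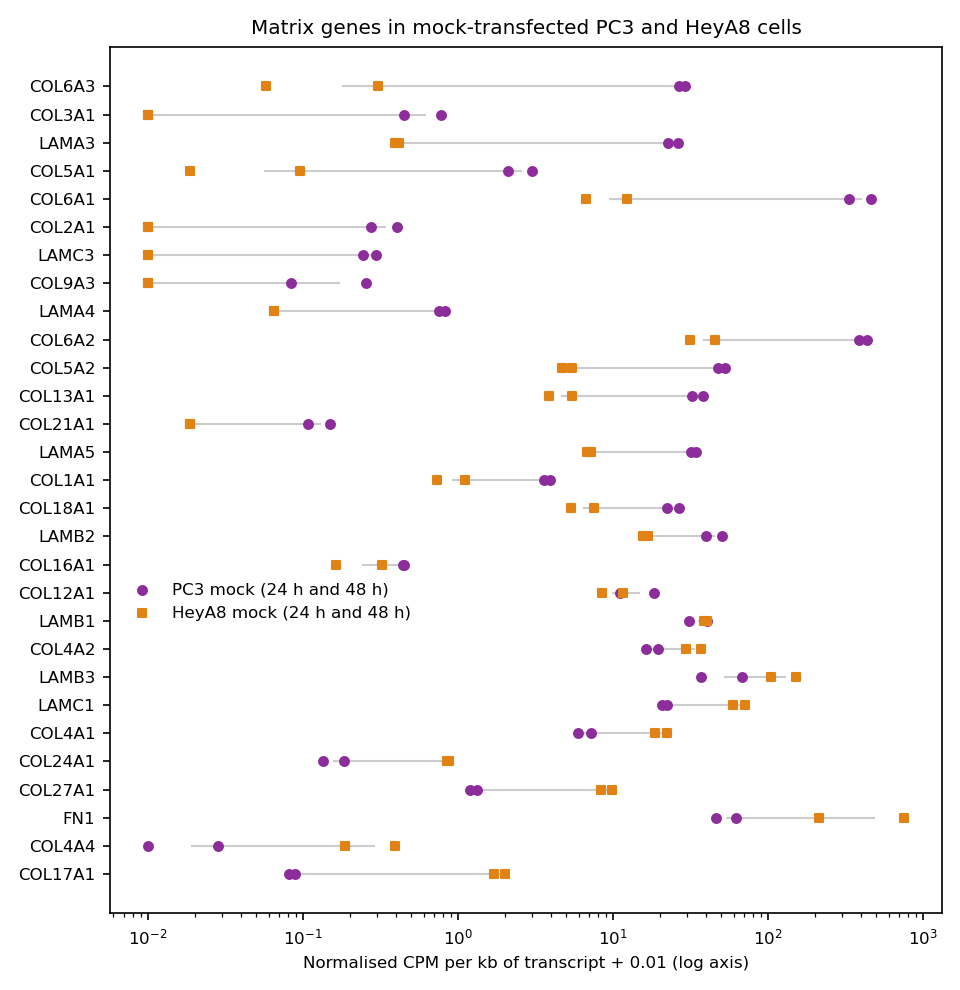
Normalised CPM per kb of transcript plus 0.01 (log axis) of 29 genes with a mean of at least 20 CPM in a line or a call in any comparison, in the 2 mock libraries of PC3 (circles) and of HeyA8 (squares), with a grey line between the means. The genes run from those highest in PC3 relative to HeyA8 at the top (COL6A3, COL3A1, LAMA3) to those highest in HeyA8 at the bottom (FN1, COL4A4, COL17A1).

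Of the 55 genes, COL6A1 and COL6A2 of type VI collagen had the highest levels per kb of transcript in PC3. COL6A1 (chr21:45981770-46005050, plus strand, hg38) and COL6A2 (chr21:46098112-46132848, plus strand) encode the short alpha1 and alpha2 chains. Per kb of transcript, COL6A2 averaged 507 and COL6A1 436 CPM per kb over the 8 PC3 libraries. COL6A1 in PC3 stood at 1949 and 1407 CPM in mock cells at 24 and 48 h, 2339 and 1892 with siNT1, 1656 and 664 with siGGGGGC, and 2190.4 and 2557 with siCAG. The siGGGGGC library of 48 h was the lowest of the 8. COL6A2 in PC3 stood at 1504 and 1327 CPM (mock), 2119 and 1656 (siNT1), 2284 and 991 (siGGGGGC), and 1944 and 2139 (siCAG), and the same library was again the lowest. COL6A3 (chr2:237324003-237414328, minus strand), which encodes the long alpha3 chain, read 309 and 281 CPM in mock, 250.2 and 362 in siNT1, 287 and 190.2 in siGGGGGC, and 256 and 547 in siCAG libraries in PC3.

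In HeyA8 all 3 chains were lower, and not to the same degree. COL6A1 in HeyA8 had 52.01 and 28.1 CPM in mock cells, 75.6 and 41.5 with siNT1, 37.8 and 45.5 with siGGGGGC, and 99.6 and 116 with siCAG. COL6A2 in HeyA8 had 156 and 109 CPM (mock), 206 and 145 (siNT1), 166 and 207 (siGGGGGC), and 248 and 165 (siCAG). COL6A3 had only 3.11 and 0.507 CPM in mock, 3.01 and 0.581 in siNT1, 2.9004 and 0.362 in siGGGGGC, and 2.88 and 0.150 in siCAG libraries in HeyA8, so that its level per kb there averaged 0.16 CPM per kb beside 14.8 for COL6A1 and 50.8 for COL6A2. In mock cells the log2 fold change was 5.48 ± 0.46 (SE, adjusted p = 6.33e-06) for COL6A1. COL6A2 differed by a log2 fold change of 3.47 ± 0.36 (SE, adjusted p = 2.34e-05), and COL6A3 by a log2 fold change of 6.35 ± 0.53 (SE, adjusted p = 6.39e-06). No library of one line overlapped the other line for any of these 3 genes.

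Among the fibrillar chains, COL5A2, which encodes an alpha chain of the type V collagen that helps start fibrils, was the most abundant in PC3. COL5A2 in PC3 stood at 326 and 362 CPM in mock cells, 226 and 359 with siNT1, 183 and 129 with siGGGGGC, and 251 and 372 with siCAG, and in HeyA8 at 31.96 and 37.3 CPM (mock), 34.8 and 46.003 (siNT1), 33.04 and 36.5 (siGGGGGC), and 57.1 and 138 (siCAG). The lines did not overlap except that the 48 h siCAG library of HeyA8 (138 CPM) exceeded the 48 h siGGGGGC library of PC3 (129 CPM). COL5A1, the partner chain of COL5A2, read 25.3 and 17.7 CPM in mock, 44.2 and 49.7 in siNT1, 39.5 and 20.9 in siGGGGGC, and 21.1 and 21.4 in siCAG libraries in PC3 and ranged from 0.0725 to 1.18 CPM in HeyA8, with 0.724 and 0.0725 CPM in its mock libraries. In mock cells the log2 fold change was 3.45 ± 0.37 (SE, adjusted p = 3.35e-05) for COL5A2, and COL5A1 had a log2 fold change of 5.56 ± 0.64 (SE, adjusted p = 5.31e-05).

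COL1A1, the alpha1 chain of type I collagen, was present in both lines, whereas its partner COL1A2 was close to 0. COL1A1 in PC3 stood at 21.1 and 23.2 CPM in mock cells, 34.9 and 55.1 with siNT1, 31.8 and 23.97 with siGGGGGC, and 31.1 and 56.9 with siCAG, and in HeyA8 at 6.55 and 4.24 CPM (mock), 10.5 and 6.47 (siNT1), 10.2 and 3.55 (siGGGGGC), and 22.3 and 47.02 (siCAG). Per kb, COL1A1 averaged 5.88 CPM per kb in PC3 and 2.34 in HeyA8, beside 0.0488 and 0.0018 for COL1A2. The mock difference of COL1A1 was a log2 fold change of 1.69 ± 0.55 (SE, adjusted p = 0.0266), and it lost its call without any 1 of the 4 mock libraries (adjusted p from 0.0513 to 0.165).

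The fibrillar chains of types II and III were low in PC3 and all but absent from HeyA8. COL2A1, the cartilage collagen, had 1.35 and 1.997 CPM in mock, 2.74 and 3.98 in siNT1, 1.28 and 1.72 in siGGGGGC, and 1.303 and 2.56 in siCAG libraries in PC3 and no count in any HeyA8 library. COL3A1, a collagen of soft connective tissue, had 2.42 and 4.23 CPM in mock cells, 2.53 and 4.77 with siNT1, 1.81 and 1.91 with siGGGGGC, and 1.81 and 2.43 with siCAG in PC3 and from 0 to 0.0400 CPM in HeyA8. Against 3 counts per library as the floor for the mock libraries of HeyA8, which held 0 counts of either gene, COL2A1 was at least 15.4-fold and COL3A1 at least 30.6-fold higher in PC3 mock cells (adjusted p = 0.000862 and 0.000399, edgeR). The floor covers counting error only.

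A pair of fibrillar chains went the other way. COL27A1, a vertebrate fibrillar collagen, had 76.6 and 64.8 CPM (mock), 83.5 and 73.03 (siNT1), 61.5 and 19.2 (siGGGGGC), and 166 and 85.4 (siCAG) in HeyA8 and from 9.203 to 14.2 CPM in PC3, with 9.203 and 10.3 CPM in its mock libraries. The lines did not overlap, and the log2 fold change was -3.29 ± 0.39 (SE, adjusted p = 5.8e-05). COL24A1 had 5.94 and 5.73 CPM in mock, 5.22 and 5.31 in siNT1, 9.44 and 11.1 in siGGGGGC, and 5.43 and 14.9 in siCAG libraries in HeyA8 and from 0.219 to 1.196 CPM in PC3, with 1.196 and 0.852 CPM in its mock libraries and a log2 fold change of -2.50 ± 0.51 (SE, adjusted p = 0.00227).

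The basement membrane chains COL4A1 and COL4A2, which form the common type IV trimer, were expressed in both lines and higher in HeyA8 mock cells. COL4A1 in PC3 stood at 47.2 and 38.7 CPM in mock cells, 62.9 and 68.1 with siNT1, 88.5 and 59.5 with siGGGGGC, and 72.8 and 92.8 with siCAG, and in HeyA8 at 145 and 122 CPM (mock), 196 and 156 (siNT1), 219 and 194 (siGGGGGC), and 184 and 156 (siCAG). COL4A2 in PC3 stood at 126 and 106 CPM in mock, 103 and 90.2 in siNT1, 122 and 53.8 in siGGGGGC, and 206 and 321 in siCAG libraries, and in HeyA8 at 237 and 191 CPM in mock cells, 238 and 147 with siNT1, 266 and 189 with siGGGGGC, and 388 and 275 with siCAG. The 2 siCAG libraries were the highest of PC3 and of HeyA8 for COL4A2. The log2 fold change was -1.71 ± 0.25 (SE, adjusted p = 0.000273) for COL4A1. COL4A2 had a log2 fold change of -1.01 ± 0.36 (SE, adjusted p = 0.0414), a call that was lost without any 1 mock library. COL4A4, a chain of the specialised basement membranes of kidney and ear, had 1.77 and 3.81 CPM (mock), 2.35 and 2.48 (siNT1), 4.24 and 2.32 (siGGGGGC), and 3.04 and 17.4 (siCAG) in HeyA8 and from 0 to 0.573 CPM in PC3, with 6 and 0 counts in the 24 and 48 h PC3 mock libraries and a log2 fold change of -4.73 ± 1.21 (SE, adjusted p = 0.00829). This value rests on those 6 counts: it was -3.45 without the 48 h PC3 mock library, and without the 24 h one no PC3 mock count was left. Its partner COL4A3 averaged 0.0722 CPM per kb in HeyA8 beside 0.468 for COL4A4.

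The remaining collagens of note were of the fibril-associated, transmembrane and multiplexin groups. COL12A1, a collagen that coats fibrils, was abundant in both lines. COL12A1 in PC3 stood at 216 and 129 CPM in mock, 129 and 135 in siNT1, 258 and 232 in siGGGGGC, and 211 and 245 in siCAG libraries, and in HeyA8 at 135 and 99.5 CPM in mock cells, 105 and 117 with siNT1, 140.5 and 115 with siGGGGGC, and 129 and 149 with siCAG, and the mock difference did not pass the test (log2 fold change 0.57 ± 0.27 (SE), adjusted p = 0.111). COL13A1, a transmembrane collagen, had 102 and 119 CPM (mock), 95.3 and 125 (siNT1), 129.6 and 70.99 (siGGGGGC), and 88.3 and 114 (siCAG) in PC3 and 17.05 and 12.2 CPM in mock, 23.03 and 15.5 in siNT1, 25.5 and 20.02 in siGGGGGC, and 32.4 and 43.9 in siCAG libraries in HeyA8. COL18A1, whose C-terminal fragment is endostatin, had 144 and 121 CPM in mock cells, 154 and 127 with siNT1, 209 and 91.9 with siGGGGGC, and 147 and 169 with siCAG in PC3 and 40.8 and 28.96 CPM (mock), 54.4 and 43.9 (siNT1), 41.7 and 37.8 (siGGGGGC), and 54.3 and 40.8 (siCAG) in HeyA8. PC3 was higher in mock cells for both, with a log2 fold change of 2.80 ± 0.38 (SE, adjusted p = 0.000153) for COL13A1 and a log2 fold change of 1.96 ± 0.31 (SE, adjusted p = 0.000472) for COL18A1. COL17A1, the transmembrane collagen of hemidesmosomes, had 11.3 and 9.57 CPM in mock, 11.03 and 10.3 in siNT1, 11.1 and 2.03 in siGGGGGC, and 11.6 and 3.23 in siCAG libraries in HeyA8 and from 0.318 to 1.399 CPM in PC3, with 0.399 and 0.441 CPM in its mock libraries. It was higher in HeyA8 mock cells, with a log2 fold change of -5.19 ± 0.69 (SE, adjusted p = 0.000146). COL16A1, another fibril-associated chain, had 2.39 and 2.35 CPM in mock cells, 6.29 and 3.88 with siNT1, 7.24 and 5.44 with siGGGGGC, and 7.91 and 13.2 with siCAG in PC3 and 1.701 and 0.834 CPM (mock), 1.07 and 1.12 (siNT1), 3.11 and 1.59 (siGGGGGC), and 5.91 and 7.89 (siCAG) in HeyA8. COL21A1 and COL9A3, both of the fibril-associated group, were low throughout. COL21A1 had from 0.343 to 0.636 CPM in PC3, with 0.583 and 0.411 CPM in its mock libraries, against 2 counts in the mock libraries of HeyA8 together, a ratio of 13.7 (exact 95% interval 3.50 to 118 from the counts alone, adjusted p = 0.0236). COL9A3 had from 0.184 to 1.37 CPM in PC3, with 0.184 and 0.617 CPM in its mock libraries, and no count in the HeyA8 mock libraries, which made it at least 3.69-fold higher in PC3 against the same floor (adjusted p = 0.0240).

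The laminin chains differed between the lines in both directions, also within the beta and the gamma chains. LAMA3, the alpha chain of laminin-332, the laminin that anchors epithelia, had 280.3 and 241 CPM in mock, 234 and 272 in siNT1, 266 and 196 in siGGGGGC, and 221 and 288 in siCAG libraries in PC3 and from 2.63 to 4.55 CPM in HeyA8, with 4.31 and 4.096 CPM in its mock libraries. LAMB3, the beta chain of the same laminin, was high in both lines. LAMB3 in PC3 stood at 273 and 149 CPM in mock cells, 420.2 and 351 with siNT1, 353 and 170.4 with siGGGGGC, and 418 and 421 with siCAG, and in HeyA8 at 420.4 and 609 CPM (mock), 424 and 523 (siNT1), 369.5 and 327 (siGGGGGC), and 1054 and 840.2 (siCAG). HeyA8 therefore held LAMB3 at 142 CPM per kb with LAMA3 at 0.343 CPM per kb, while PC3 held LAMB3 at 79.6 and LAMA3 at 23.5 CPM per kb. In mock cells LAMA3 had a log2 fold change of 5.93 ± 0.28 (SE, adjusted p = 4.2e-07). LAMB3 was higher in HeyA8, with a log2 fold change of -1.02 ± 0.32 (SE, adjusted p = 0.0221).

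LAMA5, the alpha chain most common in adult epithelial and vascular basement membranes, had 362 and 392 CPM in mock, 444 and 405 in siNT1, 553 and 316 in siGGGGGC, and 388 and 406 in siCAG libraries in PC3 and 78.1 and 82.3 CPM in mock cells, 80.5 and 50.1 with siNT1, 67.6 and 81.8 with siGGGGGC, and 104 and 71.8 with siCAG in HeyA8, with no overlap and a mock log2 fold change of 2.22 ± 0.33 (SE, adjusted p = 0.000284). LAMA4, an alpha chain of vascular and mesenchymal laminins, had 5.89 and 5.35 CPM (mock), 8.91 and 9.22 (siNT1), 7.59 and 5.28 (siGGGGGC), and 12.3 and 20.1 (siCAG) in PC3 and from 0.109 to 1.73 CPM in HeyA8, with 0.398 and 0.399 CPM in its mock libraries and a log2 fold change of 4.11 ± 0.56 (SE, adjusted p = 0.000167). The beta chains LAMB1 and LAMB2 and the gamma chain LAMC1 are shared by most laminins. LAMB1 in PC3 stood at 174 and 229 CPM in mock, 174 and 253 in siNT1, 218 and 222 in siGGGGGC, and 193 and 271 in siCAG libraries, and in HeyA8 at 228 and 218 CPM in mock cells, 233 and 233 with siNT1, 274 and 329 with siGGGGGC, and 369.8 and 342 with siCAG, and its mock difference of -0.33 ± 0.21 (log2, SE) did not pass the test (adjusted p = 0.220, edgeR). LAMB2 (chr3:49121114-49133118, minus strand) in PC3 stood at 287 and 225 CPM (mock), 211 and 224 (siNT1), 288 and 339 (siGGGGGC), and 207 and 267 (siCAG), and in HeyA8 at 89.1 and 95.98 CPM in mock, 89.3 and 76.8 in siNT1, 108 and 136 in siGGGGGC, and 217 and 189 in siCAG libraries. It was higher in PC3 mock cells, with a log2 fold change of 1.44 ± 0.24 (SE, adjusted p = 0.000749). LAMC1 in PC3 stood at 176 and 164 CPM in mock cells, 193 and 247 with siNT1, 239 and 304 with siGGGGGC, and 177 and 228 with siCAG, and in HeyA8 at 565 and 473 CPM (mock), 559.5 and 558 (siNT1), 605 and 608 (siGGGGGC), and 712 and 646 (siCAG), without overlap and with a log2 fold change of -1.77 ± 0.20 (SE, adjusted p = 4.59e-05). LAMC3 had 2.15 and 1.73 CPM in mock, 2.13 and 2.89 in siNT1, 3.68 and 2.55 in siGGGGGC, and 2.22 and 2.56 in siCAG libraries in PC3 and no count in the HeyA8 mock libraries, so it was at least 17.9-fold higher in PC3 mock cells against the floor (adjusted p = 0.00125).

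FN1 (chr2:215360440-215436073, minus strand, hg38) was the gene of the set with the highest level in HeyA8, at 691 CPM per kb over its 8 libraries against 50.4 in PC3. FN1 in PC3 stood at 518 and 389 CPM in mock cells, 385 and 443 with siNT1, 457 and 392 with siGGGGGC, and 391 and 411 with siCAG. The groups of PC3 libraries overlapped. FN1 in HeyA8 stood at 6328 and 1778 CPM (mock), 5571 and 2577 (siNT1), 5993 and 1304 (siGGGGGC), and 10415 and 12401 (siCAG), so every HeyA8 library lay above every PC3 library. In mock cells the log2 fold change was -3.50 ± 0.50 (SE, adjusted p = 0.000235).

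A further 25 genes had means under 10 CPM in both lines and no call in any comparison. COL7A1, the collagen of anchoring fibrils, was the highest of them, with 3.201 to 14.1 CPM over the PC3 libraries and 1.99 to 8.59 CPM over those of HeyA8. LAMA2, the alpha chain of muscle laminin, had 0.734 to 5.89 CPM in PC3 and 0.217 to 1.61 CPM in HeyA8, and LAMA1, the alpha chain of the embryonic laminin, 0.337 to 3.03 and 0.362 to 0.736 CPM. COL9A2 and COL8A1 had means of 1.95 and 1.22 CPM in PC3 and of 1.56 and 1.69 CPM in HeyA8, and COL11A2 means of 0.951 and 1.19 CPM. The remaining 19 had means under 1 CPM in both lines.

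**Figure D2:**
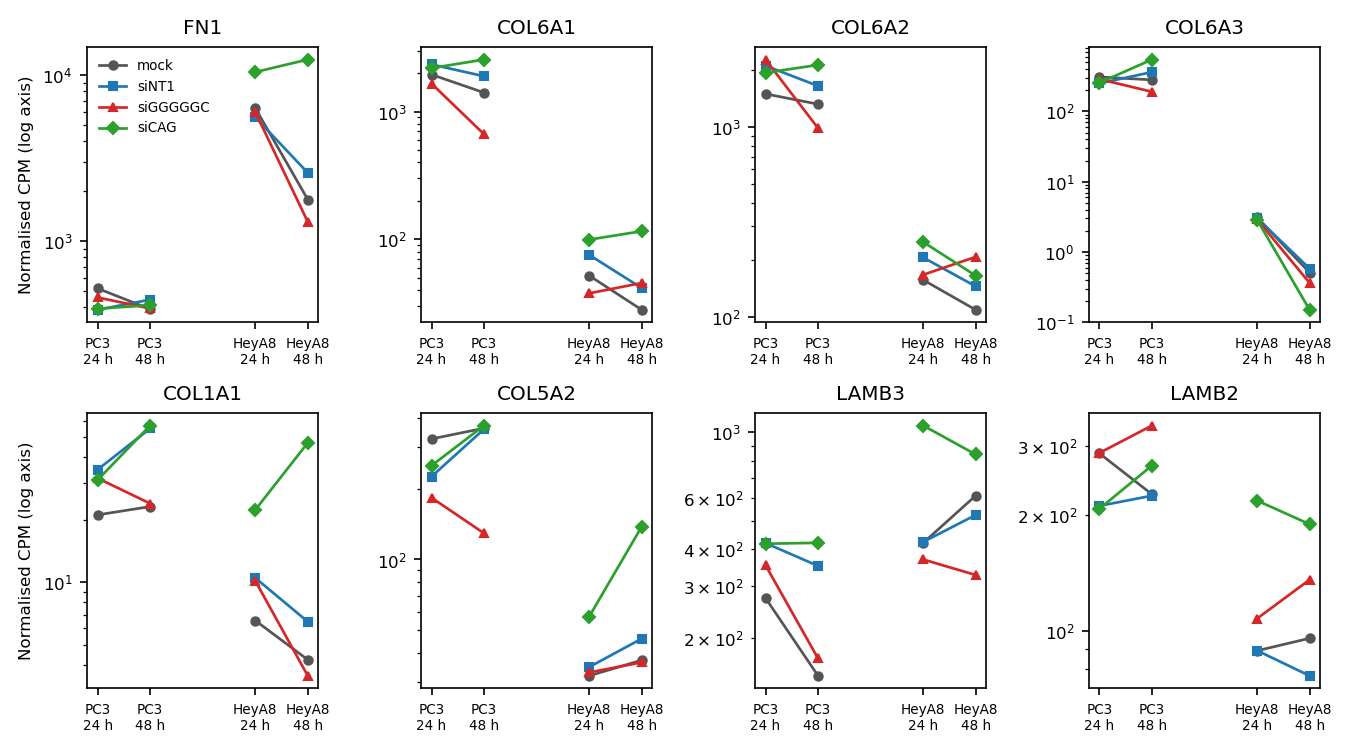
Normalised CPM (log axes that differ between panels) of 8 matrix genes in each of the 16 libraries, with a line from the 24 h to the 48 h library of each line and siRNA (grey circles mock, blue squares siNT1, red triangles siGGGGGC, green diamonds siCAG). FN1 in HeyA8 is lower at 48 h in the mock, siNT1 and siGGGGGC libraries and not with siCAG, COL6A3 is lower at 48 h in all 4 conditions of HeyA8, and the 48 h siGGGGGC library of PC3 is the lowest of that line for COL6A1, COL6A2, COL6A3 and COL5A2.

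Other genes of the matrix pathway were counted in the same comparison of mock cells, in which 45.5% of all genes were called. In the 24 tested genes of collagen synthesis and secretion, 9 were higher in PC3 mock cells and 4 in HeyA8. P4HA1, a subunit of prolyl 4-hydroxylase, had 339 and 415 CPM in the PC3 mock libraries and 43.6 and 49.1 in those of HeyA8 (log2 fold change 3.18 ± 0.36 (SE), adjusted p = 4.62e-05). Of 6 cross-linking enzymes, 1 was higher in PC3 and 3 in HeyA8: LOXL4 differed by 5.70 ± 0.46 and LOX by -4.31 ± 0.83 (log2 fold change, SE, adjusted p = 5.06e-06 and 0.00157). Of 21 other matrix glycoproteins and proteoglycans, 8 were higher in PC3 and 6 in HeyA8. HSPG2, the basement membrane proteoglycan perlecan, had a log2 fold change of 4.82 ± 0.46 and TGFBI, a matrix adaptor induced by TGF-beta, one of -8.94 ± 0.43 (SE, adjusted p = 1.46e-05 and 4.2e-07). Of 19 matrix receptors, 8 were higher in PC3 and 6 in HeyA8. ITGB4, the beta subunit of the laminin receptor of hemidesmosomes, had 356 and 295 CPM in PC3 mock cells and 0.326 and 0.181 in HeyA8 mock cells, and DDR2, a collagen receptor, 0.890 and 0.734 against 39.1 and 35.96. Of 20 matrix proteases and inhibitors, 5 were higher in PC3 and 4 in HeyA8, among them PLAT, tissue plasminogen activator, which was higher in PC3 with a log2 fold change of 6.00 ± 0.36 (SE, adjusted p = 1.1e-06). Of 17 TGF-beta pathway regulators of matrix genes, 3 were higher in PC3 and 6 in HeyA8.

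The next question was what the siRNAs carried for these genes. The seed of siGGGGGC pairs with GCCCCC, and an siRNA can act like a miRNA on transcripts that hold such a match, most often in the 3′ UTR. The human miRNA miR-1237-5p has GGGGGC within its seed, and its mature sequence (RefSeq, hg38 chr11:64368651-64368671, plus strand) is shown 5′ to 3′ with its seed, bases 2 to 8, in capitals.
hsa-miR-1237-5p: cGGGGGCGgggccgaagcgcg

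GCCCCC, which cannot overlap itself, was counted on the sense strand of the transcript with the longest 3′ UTR of each gene and, separately, in the longest coding sequence (GENCODE v44, hg38), for all 55 genes and for 18931 genes of the table with a coding transcript. At least 1 GCCCCC was present in the 3′ UTR of 18 of the 55 genes (32.7%), beside 29.9% of all genes. It was present in 16 of 42 collagens (38.1%) and in 2 of 12 laminins, LAMB2 and LAMC3, and not in FN1. A few of these sites are printed, 5′ to 3′ in the sense of the gene with GCCCCC in capitals, from COL2A1, which was called with siGGGGGC in PC3, and from COL6A1, COL6A3 and LAMB2, which were not called there, with the position of the 6 capitals in hg38. They lie in the annotated 3′ UTR of each gene.
COL2A1 chr12:47973124-47973129, minus strand: gagtcaaatGCCCCCtgagtgact
COL2A1 chr12:47973109-47973114, minus strand: tgagtgactGCCCCCagcccaggc
COL6A1 chr21:46004951-46004956, plus strand: ttatcaaagGCCCCCtttctatgt
COL6A3 chr2:237324298-237324303, minus strand: tcattccctGCCCCCaatttccca
LAMB2 chr3:49121136-49121141, minus strand: cccggcaggGCCCCCaataaacca

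The coding sequences set the collagens apart. All 42 collagens held at least 1 GCCCCC in the coding sequence, beside 7 of 12 laminins, no site in FN1 and 42.2% of all genes. More than 1 site per kb of coding sequence was found in 27 of 42 collagens (64.3%) and in 21.5% of all genes. COL18A1 held 28 sites, COL5A3 22 and COL5A1 20, and LAMA5 held 21 as the richest laminin. The share of G and C in the coding sequence moved with this, with a median of 59.8% in the collagens and 52.8% in all genes, and its part in the count was not tested. The reading frame of the sites differed too: 193 of the 343 collagen sites (56.3%) began at the second base of a codon, beside 25.6% of the 19305 sites in all genes. Such a site is printed for 3 collagens in windows that begin with the first base of a codon, with GCCCCC in capitals. In each of them the site begins in a GGC codon for glycine, takes in the CCC codon for proline that follows and ends with the first base of the next codon.
COL2A1 chr12:47997647-47997652, minus strand: ggaaatcctgGCCCCCctggtcctcccggc
COL5A2 chr2:189051367-189051372, minus strand: ggaccagctgGCCCCCctggtggcccagga
COL12A1 chr6:75102650-75102655, minus strand: ggtcctccagGCCCCCagggtcctccaggc

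In PC3, 9.67% of the 15136 genes tested differed between siGGGGGC and siNT1, 3.67% higher and 6.00% lower with siGGGGGC, and 2 of the 38 members did. COL2A1 fell, from 2.74 and 3.98 CPM with siNT1 at 24 and 48 h to 1.28 and 1.72 CPM with siGGGGGC (log2 fold change -1.18 ± 0.27, SE, adjusted p = 0.0401, edgeR). COL12A1 (chr6:75084326-75206267, minus strand) rose, from 129 and 135 CPM to 258 and 232 CPM (log2 fold change 0.87 ± 0.22, SE, adjusted p = 0.0485). The groups did not overlap for either gene. With siCAG in PC3, COL2A1 had 1.303 and 2.56 CPM and COL12A1 had 211 and 245 CPM. Against siNT1 these were log2 fold changes of -0.86 ± 0.27 and 0.77 ± 0.22 (SE), without a call (adjusted p = 0.220 and 0.188, edgeR). In mock cells COL2A1 had 1.35 and 1.997 CPM, below both siNT1 libraries, and COL12A1 had 216 and 129 CPM, of which the 24 h value lay above both siNT1 libraries. With mock as the control the log2 fold changes were -0.16 for COL2A1 and 0.51 for COL12A1, and neither passed the test (adjusted p = 0.699 and 0.130, edgeR). Both calls were also lost without the term for time, in a fit without the siCAG libraries, in a fit of the libraries of the 2 groups alone, and without either siNT1 library or the 48 h siGGGGGC library.

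A further 12 of the 38 genes had an unadjusted p under 0.05 in this comparison without passing the adjustment, which made 14 of 38 (36.8%) with the 2 called, beside 32.1% of all genes. COL6A1 had 2339 and 1892 CPM with siNT1 and 1656 and 664 CPM with siGGGGGC, a log2 fold change of -0.97 ± 0.30 (SE, adjusted p = 0.0758). COL5A2 had 226 and 359 CPM with siNT1 and 183 and 129 CPM with siGGGGGC, a log2 fold change of -0.88 ± 0.26 (SE, adjusted p = 0.0666). COL17A1 had 1.36 and 1.40 CPM with siNT1 and 0.624 and 0.318 CPM with siGGGGGC, a log2 fold change of -1.57 ± 0.42 (SE, adjusted p = 0.0535), which was 0.14 with mock as the control. In all 3 the siGGGGGC libraries lay below the siNT1 libraries. COL11A2, a cartilage fibrillar chain named here after its values were seen, had 0.524 and 0.795 CPM with siNT1 and 0.999 and 3.12 CPM with siGGGGGC, a log2 fold change of 1.48 ± 0.40 (SE, adjusted p = 0.0567). Over the 38 genes the median log2 fold change came to -0.13, beside 0.00 over all genes, and 21 of the 38 had a negative value. Under DESeq2, 7 of the 38 genes were called (18.4%), 2 higher and 5 lower, beside 18.9% of all genes. With mock as the control, edgeR called 8 of 38, 6 higher and 2 lower, beside 21.1% of all genes. Without the 24 h siGGGGGC library 14 genes were called, 10 of them lower, while 3702 of all 15723 genes tested were called. Without the 48 h siGGGGGC library no member was called, with 617 of all 15454 genes. The 48 h siGGGGGC library also had the lowest share of counts from the 55 genes in PC3, 0.532%. Of the marker genes, PDGFRA, 1 of 2 fibroblast markers tested of 5, and PAX8, 1 of 3 ovarian markers, were lower with siGGGGGC in PC3 (log2 fold change -1.48 and -1.36, adjusted p = 0.0478 and 0.0434). DCN and THY1 stayed at or under 0.0318 CPM in the 8 PC3 libraries. In RNA from whole cultures, fewer cells of one kind and less RNA per cell cannot be told apart, and the part of these markers in the result was not tested.

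The members with and without a match were compared by their medians, as a description. In PC3 the median log2 fold change was -0.29 over the 11 tested members with GCCCCC in the 3′ UTR and -0.01 over the 27 without it, beside -0.09 and 0.04 over all genes tested. Of these 11 members with a 3′ UTR site, 7 had a negative value. The others, COL8A2, LAMB2, LAMC3 and COL18A1, had log2 fold changes of 0.85, 0.51, 0.28 and 0.01. COL2A1, the member called lower, holds 2 sites in its 3′ UTR. COL12A1, the member called higher, holds none there and 5 in its coding sequence. Both calls were lost with mock as the control, and the part of the sites in them was not tested. Of all genes tested, the 546 with more than 5 sites in the coding sequence had a median of -0.33, and 98 of them fell and 3 rose. The 17 members with more than 5 coding sites had a median of -0.01, 9 of 17 had a negative value, and 1 passed the test. The median GC content of the coding sequence was 64.7% in these 17 and 63.5% in the 546. In HeyA8 the corresponding medians were 0.19 for 15 members and -0.40 for 492 genes, none of which passed the test.

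**Figure D3:**
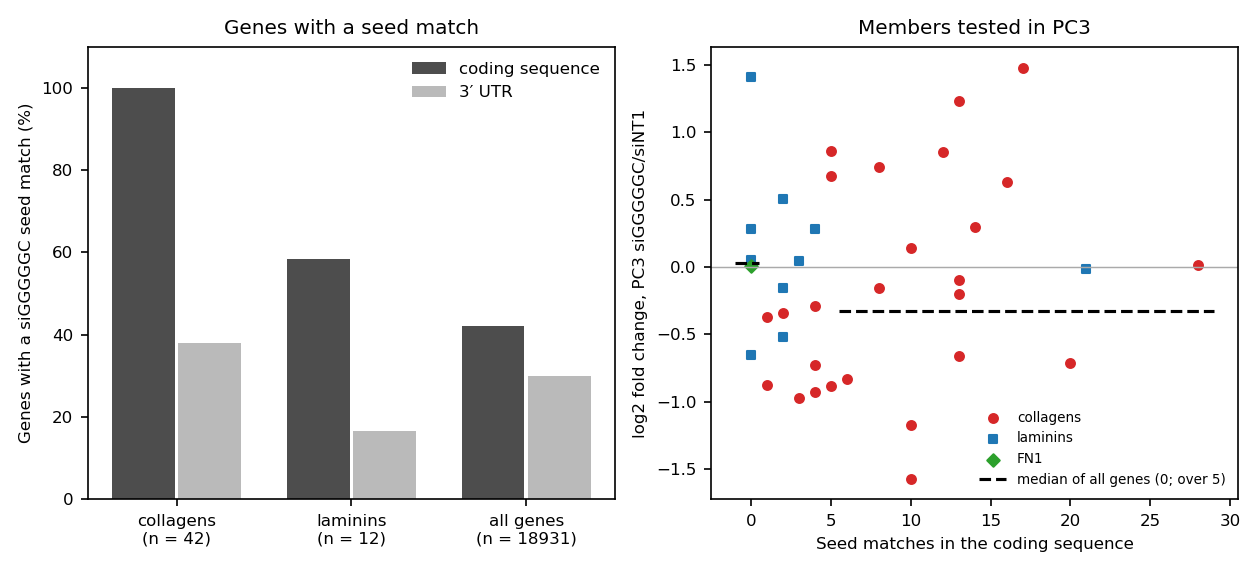
Left, the percentage of collagens, laminins and all genes with at least 1 match to the siGGGGGC seed in the coding sequence (dark bars) and in the 3′ UTR (light bars). Right, log2 fold change (siGGGGGC over siNT1 in PC3) of 37 tested members against the number of matches in the coding sequence (red circles collagens, blue squares laminins, green diamond FN1), with dashed lines at the median of all genes with no match (0.03) and with more than 5 (-0.33). The members with more than 5 matches lie on both sides of 0.

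In HeyA8, siGGGGGC called 0% of the 13872 genes tested and therefore 0 of the 32 members (edgeR), with 2 members and 9.75% of all genes at an unadjusted p under 0.05. DESeq2 called 0 of the 32 and 2.29% of all genes. The edgeR share depended on the libraries fitted. Without the siCAG libraries, edgeR called 0 of 32 members and 3.52% of all genes, with 9 members at an unadjusted p under 0.05. A fit of the libraries of the 2 groups alone called 2 of 31 members, both lower, and 8.86% of all genes. COL27A1, with an unadjusted p under 0.05, had 83.5 and 73.03 CPM with siNT1 and 61.5 and 19.2 CPM with siGGGGGC, a log2 fold change of -1.16 ± 0.39 (SE, adjusted p = 0.441). Its siGGGGGC libraries lay below its siNT1 libraries. Over 11 alternative fits the log2 fold change of COL27A1 ran from -1.85 to -0.59. It passed the test in 1 of them, the fit of the libraries of the 2 groups alone. The median of the 32 genes was 0.06, beside 0.00 for all genes. An interaction term in the fit of all 16 libraries asked whether the lines differed in their siGGGGGC response. It called 0% of 15887 genes, 0 of the 39 members with edgeR or DESeq2, which called 0.120% of all genes. At an unadjusted p under 0.05 stood 3 members, COL9A2, COL24A1 and COL27A1, and 6.63% of all genes.

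siCAG pairs with CUG repeats. A run of at least 6 CTG triplets on the sense strand occurred in the coding sequence of COL5A1 and in no other member, coding sequence or 3′ UTR, and in 96 of the 18931 genes. In PC3, siCAG called 1.20% of all genes and 0 of the 38 members with edgeR, with 8 of 38 at an unadjusted p under 0.05, beside 13.5% of all genes. DESeq2 called 2 members, COL4A2 and COL5A1, and 3.78% of all genes. COL5A1 had 44.2 and 49.7 CPM with siNT1 and 21.1 and 21.4 CPM with siCAG, a log2 fold change of -1.18 ± 0.26 (SE, adjusted p = 0.0982), and its mock libraries stood at 25.3 and 17.7 CPM, so that with mock as the control the log2 fold change was -0.0089. COL4A2 had 103 and 90.2 CPM with siNT1 and 206 and 321 CPM with siCAG, a log2 fold change of 1.45 ± 0.35 (SE, adjusted p = 0.128). Neither pair of groups overlapped.

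In HeyA8, siCAG changed 7.81% of all genes, 2.88% higher and 4.93% lower, and 2 of the 32 members, both higher. COL16A1 (chr1:31652263-31704319, minus strand) rose from 1.07 and 1.12 CPM with siNT1 to 5.91 and 7.89 CPM with siCAG (log2 fold change 2.55 ± 0.49, SE, adjusted p = 0.0337, edgeR). LAMB2 rose from 89.3 and 76.8 CPM to 217 and 189 CPM (log2 fold change 1.15 ± 0.23, SE, adjusted p = 0.0372). The siCAG libraries also lay above both mock and siGGGGGC libraries for each gene, and both calls held with mock as the control. Both were lost without either siNT1 library (adjusted p from 0.229 to 0.404), and LAMB2 also in a fit of the 4 siCAG and siNT1 libraries alone (adjusted p = 0.138).

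Of the 32 members, 26 had a positive log2 fold change with siCAG in HeyA8 and the median was 0.64, beside -0.01 for all genes tested. Of the 32, 9 (28.1%) had an unadjusted p under 0.05, beside 29.5% of all genes, and DESeq2 called 8 (25.0%), all of them higher, beside 19.2% of all genes. COL1A1 had 10.5 and 6.47 CPM with siNT1 and 22.3 and 47.02 CPM with siCAG, a log2 fold change of 2.04 ± 0.60 (SE, adjusted p = 0.0820). FN1 had 5571 and 2577 CPM with siNT1 and 10415 and 12401 CPM with siCAG, a log2 fold change of 1.65 ± 0.56 (SE, adjusted p = 0.111). COL5A2 had 34.8 and 46.003 CPM with siNT1 and 57.1 and 138 CPM with siCAG, a log2 fold change of 1.07 ± 0.34 (SE, adjusted p = 0.0940). LAMB3 had 424 and 523 CPM with siNT1 and 1054 and 840.2 CPM with siCAG, a log2 fold change of 0.87 ± 0.25 (SE, adjusted p = 0.0802). For each of these genes the siCAG libraries lay above the siNT1 libraries. Without the 48 h siCAG library the log2 fold change was 0.38 for FN1, 0.77 for COL1A1 and 0.45 for COL5A2, and without the 24 h siCAG library 2.44, 2.89 and 1.56. The share of counts from the 55 genes was 1.199 and 1.421% in the siCAG libraries, against 0.766 and 0.458% with siNT1. Without the 24 h siCAG library 12 members were called, all higher, with 4520 of all 14332 genes, and without the 48 h siCAG library 6, all higher, with 4690 of all 14260 genes. Without either siNT1 library none was called, beside 0.291 and 0.376% of all genes. No marker gene of another cell type passed the test with siCAG in HeyA8.

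The siCAG responses of the lines differed in 0.636% of the 15887 genes by interaction and in 0 of the 39 members with edgeR, with 8 of 39 at an unadjusted p under 0.05, beside 14.6% of all genes. DESeq2 called 2, COL1A1 and LAMB2, and 4.22% of all genes. The median interaction (PC3 minus HeyA8) was -0.71 over the members and -0.13 over all genes. LAMB2 had an interaction of -1.17 ± 0.31 (log2, SE, adjusted p = 0.126), COL1A1 of -2.19 ± 0.69 (adjusted p = 0.181) and FN1 of -1.82 ± 0.62 (adjusted p = 0.215).

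**Figure D4:**
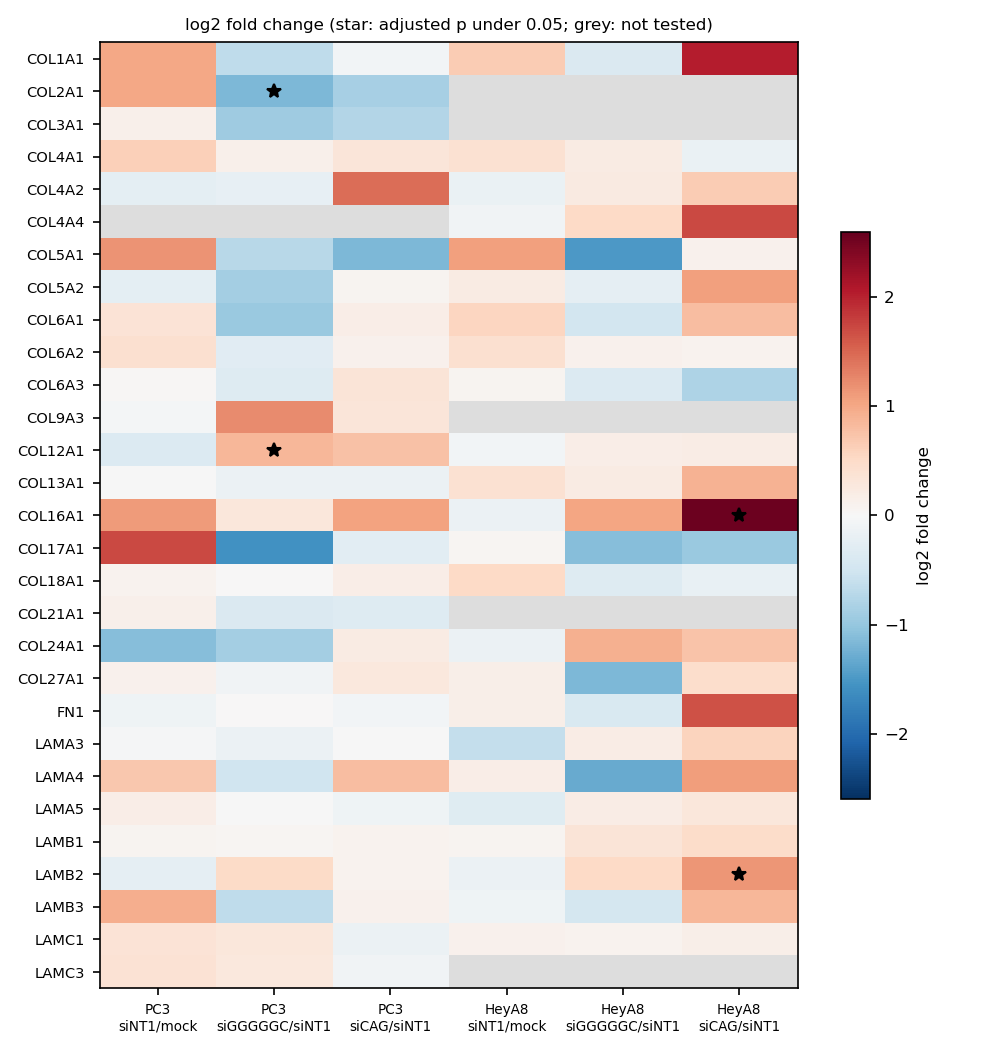
log2 fold changes (colour, from blue for lower to red for higher) of the same 29 genes in the 6 siRNA comparisons of PC3 and HeyA8, with stars for adjusted p under 0.05 and grey for genes not tested. The 4 stars are COL2A1 and COL12A1 with siGGGGGC in PC3 and COL16A1 and LAMB2 with siCAG in HeyA8.

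siNT1 was also compared with mock. Whether mock cells received the transfection reagent was not settled, so this difference may hold its effect beside that of the control siRNA. In PC3 it called 0.231% of all genes and 0 of 38 members with edgeR, with 10 of 38 at an unadjusted p under 0.05, beside 9.01% of all genes. DESeq2 called 3, LAMB3 among them, and 1.76% of all genes. The median of the members was 0.23, beside -0.01 for all genes. LAMB3 had 273 and 149 CPM in mock cells and 420.2 and 351 CPM with siNT1, a log2 fold change of 0.93 ± 0.25 (SE, adjusted p = 0.266). COL1A1 had 21.1 and 23.2 CPM in mock cells and 34.9 and 55.1 CPM with siNT1, a log2 fold change of 1.00 ± 0.28 (SE, adjusted p = 0.296). In both the siNT1 libraries lay above the mock libraries. CDH1, an epithelial marker, was also higher with siNT1 than in mock cells of PC3 (log2 fold change 1.34 ± 0.18, SE, adjusted p = 0.0417) and lower with siCAG than with siNT1 (-1.596 ± 0.18, adjusted p = 0.00656), and its part in these results was not tested. Both calls of CDH1 were lost without any 1 of the 4 libraries compared, the first also without the term for time and the second with mock as the control (log2 fold change -0.26, adjusted p = 0.456). In HeyA8 the same comparison called 0% of all genes and 0 of 32 members with edgeR, with 1, COL18A1, and 1.28% of all genes at an unadjusted p under 0.05. DESeq2 called none of the members and 0.00721% of all genes.

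The 24 and 48 h libraries were compared over the 4 conditions of each line. In PC3, 0.0264% of all genes and 0 of 38 members were called with edgeR, with 5 members and 13.4% of all genes at an unadjusted p under 0.05. DESeq2 called none of the members and 1.45% of all genes. In HeyA8, 0% of all genes and 0 of 32 members were called with edgeR, with 5 members and 6.34% of all genes at an unadjusted p under 0.05. DESeq2 called 1 member, COL6A3, and 0.440% of all genes. COL6A3 in HeyA8 went from 3.11 to 0.507 CPM in mock cells, from 3.01 to 0.581 with siNT1, from 2.9004 to 0.362 with siGGGGGC and from 2.88 to 0.150 with siCAG. The 24 h libraries lay above the 48 h libraries in all 4 conditions, by 6.13-, 5.18-, 8.01- and 19.1-fold, the last resting on 4 counts at 48 h. The log2 fold change was -2.92 ± 0.36 (SE, adjusted p = 0.470). In PC3, COL6A3 was lower at 48 h in the mock and siGGGGGC conditions and higher with siNT1 and siCAG.

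FN1 in HeyA8 went from 6328 to 1778 CPM in mock cells, from 5571 to 2577 with siNT1 and from 5993 to 1304 with siGGGGGC, which were 3.56-, 2.16- and 4.60-fold lower values at 48 h. With siCAG it went from 10415 to 12401 CPM. The log2 fold change was -1.21 ± 0.41 (SE, adjusted p = 0.724). In a fit of the mock and siNT1 libraries alone, 13 of 32 members were called, 2 higher and 11 lower at 48 h, beside 12.0% of all 13298 genes tested. With mock, siNT1 and siGGGGGC libraries in the fit, 0 of 32 members and 0.0443% of all genes were called. Laminin genes made up 20.4, 21.2 and 19.5% of the counts of the 55 genes in the 24 h mock, siNT1 and siGGGGGC libraries of HeyA8 and 43.7, 34.3 and 42.3% in those of 48 h, as the share of FN1 went down. The same kind of interaction term was fitted for time, a comparison added after the values were seen. It called 0% of 15887 genes and 0 of 39 members with edgeR, with 5 members and 5.38% of all genes at an unadjusted p under 0.05. DESeq2 called 0.107% of all genes and 1 member, COL6A3, which had an interaction of 3.14 ± 0.45 (log2, SE, adjusted p = 0.188, edgeR).

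The pathway genes around the members were counted in the same comparisons. The counts with siGGGGGC in PC3 stand beside 3.67% of all genes higher and 6.00% lower. With siGGGGGC in PC3, 1 of 24 collagen synthesis and secretion genes was higher, P4HA1, with a log2 fold change of 0.95 ± 0.22 (SE, adjusted p = 0.0397). None of 6 cross-linking enzymes passed the test, and their median log2 fold change was -0.20. Of these, TGM2 is named here because the study reports it as silenced by siGGGGGC in HeyA8. Its log2 ratios to siNT1 in PC3 were -0.90 at 24 h and -2.16 at 48 h, from single libraries with 0.1 CPM added. Of 20 other matrix glycoproteins and proteoglycans 1 was higher and 2 lower, VCAN, the proteoglycan versican, at -1.86 ± 0.34 and NID1, which links laminin to type IV collagen, at -0.996 ± 0.23 (log2 fold change, SE, adjusted p = 0.0244 and 0.0379). Of 19 receptors 1 was higher and 2 lower. ITGA5, the alpha subunit of the fibronectin receptor, had 89.7 and 123 CPM with siNT1 and 26.4 and 22.1 CPM with siGGGGGC (log2 fold change -2.15 ± 0.20, SE, adjusted p = 0.00700), and ITGA2, the alpha subunit of a collagen receptor, had 311 and 218 CPM against 114 and 49.8 CPM (-1.80 ± 0.20, adjusted p = 0.00832). Of 19 proteases and inhibitors 1 was higher and 2 lower. Of 17 TGF-beta pathway regulators 3 were higher and none lower: CTGF at 2.32 ± 0.46, SMAD7 at 2.004 ± 0.40 and CYR61 at 1.25 ± 0.26 (adjusted p = 0.0287, 0.0298 and 0.0312). Over 11 alternative fits the values ran from 1.25 to 3.04 for CTGF, 1.42 to 3.13 for SMAD7 and 0.97 to 2.23 for CYR61. VCAN had a positive value, 0.75, with mock as the control in place of siNT1, and NID1 and P4HA1 lost their calls with that control, as did the markers PDGFRA and PAX8. Without either siNT1 library no gene of the whole table was called. In HeyA8 no gene passed the test with siGGGGGC in the fit of all 8 libraries. ITGA5 had 318 and 363 CPM there with siNT1 and 134 and 109.6 CPM with siGGGGGC. TGM2 had log2 ratios to siNT1 of -1.51 at 24 h and -3.67 at 48 h in HeyA8.

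With siCAG in HeyA8, where 2.88% of all genes were higher and 4.93% lower, 4 of 21 collagen synthesis and secretion genes were lower and none higher. PLOD3, a lysyl hydroxylase and glycosyltransferase of collagens, had 79.2 and 76.7 CPM with siNT1 and 24.9 and 8.901 CPM with siCAG (log2 fold change -2.44 ± 0.39, SE, adjusted p = 0.0211). P3H3 and P3H2, prolyl 3-hydroxylase family genes, and ADAMTS3, a procollagen N-proteinase, had log2 fold changes of -2.58 ± 0.41, -1.51 ± 0.31 and -2.41 ± 0.27 (SE, adjusted p = 0.0204, 0.0383 and 0.00827). None of 6 cross-linking enzymes was called. Of 19 other matrix genes 1 was lower, NID1 at -2.49 ± 0.38 (adjusted p = 0.0192). Of 18 receptors 2 were higher, ITGA3 at 1.43 ± 0.25 and DDR2 at 1.298 ± 0.28 (adjusted p = 0.0282 and 0.0422). Of 18 proteases and inhibitors 3 were higher, MMP14, PLAT and TIMP1, and 1 lower, PLAUR, the urokinase receptor, at -2.44 ± 0.43 (adjusted p = 0.0283). Of 17 TGF-beta pathway regulators 1 was lower, TGFB1, with 79.5 and 61.2 CPM with siNT1 and 13.7 and 5.82 CPM with siCAG (log2 fold change -3.04 ± 0.36, SE, adjusted p = 0.00872). The pathway genes given here with values lost their calls without either siNT1 library, and DDR2 and P3H2 also with mock as the control.

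With siCAG in PC3, where 0.0396% of all genes were higher and 1.16% lower, 2 of 24 synthesis genes were lower and none higher, PLOD3 at -2.04 ± 0.22 and P3H2 at -2.41 ± 0.34 (log2 fold change, SE, adjusted p = 0.00510 and 0.0187). Of the other lists, 1 gene each was lower among 20 other matrix genes (SPARC, at -1.43 ± 0.26), 19 receptors (ITGA5, at -1.29 ± 0.19) and 19 proteases and inhibitors (PLAUR, at -1.77 ± 0.21), with adjusted p of 0.0480, 0.0213 and 0.00749. ITGA5 and P3H2 lost their calls with mock as the control, and all 5 of these genes lost theirs without the 48 h siCAG or the 48 h siNT1 library. No cross-linking enzyme or TGF-beta regulator was called there. With siNT1 against mock in PC3, where 0.231% of all genes were called, 2 of 20 other matrix genes were higher, VCAN at 2.61 ± 0.36 and THBS1, thrombospondin 1, at 1.89 ± 0.20 (log2 fold change, SE, adjusted p = 0.0459 and 0.0303). Both lost their calls without any 1 of the 4 libraries compared, and no gene of the other pathway lists was called.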

How the data were processed

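16 total RNA libraries (TruSeq) were analysed. After read trimming the authors used hg38 as the genome (the labels name STAR and HTSeq, and the methods of the study Tophat or STAR, with Ensembl gene models for HTSeq) and deposited raw counts per gene symbol, with 26485 rows, a column of gene length and 0 per-sample columns outside the 16 libraries. The members are defined by symbol, but this gene set, the lists and the comparisons were chosen with earlier results of these data known. Counts were tested with edgeR 4.0.16 (R 4.3.3) quasi-likelihood fits after TMM scaling and filterByExpr, with terms for siRNA and time in the 8 libraries of a line (3 residual degrees of freedom, biological coefficient of variation 18.0% in PC3 and 28.2% in HeyA8) or for line, siRNA and time within line in all 16 (6 residual degrees of freedom, 23.5%). P-values were Benjamini-Hochberg adjusted over all genes tested, with a threshold of 0.05. Each SE was derived from the edgeR test, as the absolute log2 fold change divided by the square root of its F statistic. Members with a mean of at least 20 CPM in a line, or called in a comparison, were named with each library, and at most 4 pathway genes per list and comparison, those with the largest fold among the called. The effect of DESeq2 1.42.0 and of the other alternatives is given in the closing section. Some genes that meet this rule are not reported here. Lengths, strands and sequences came from GENCODE v44 on hg38, in which 23161 symbols matched directly and 1384 by an older symbol, and the miRNA from RefSeq. Counting error and the 95% exact interval rest on counts only. Whether the counting used strand is not given in the sources used here, so overlapping antisense genes could share reads.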

Additional observations from a re-analysis of the deposited data

How the results depend on the processing

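The numbers of members called moved with the tool, the control, the filter and the libraries fitted. DESeq2 called 7 members for siGGGGGC and 2 for siCAG in PC3, 3 for siNT1 against mock in PC3, 8 for siCAG and 1 for time in HeyA8, 2 for the siCAG interaction and 1 for the time interaction. Fits of the libraries of the 2 groups alone called 7 of 38 for siCAG in PC3, beside 2346 of all 14669 genes, 0 for siGGGGGC and 4 for siNT1 in PC3, and 2 for siGGGGGC and 8 for siNT1 in HeyA8, the last 4 beside 2.99, 1.73, 8.86 and 11.8% of all genes. The mock and siNT1 libraries alone called 13 for time in HeyA8. With mock as the control, 8 members were called for siGGGGGC (6 higher, 2 lower) and 3 for siCAG in PC3 and 4 for siCAG in HeyA8 (all higher), beside 21.1, 2.58 and 8.97% of all genes. Without a filter on low counts, 6 were called for siGGGGGC, 1 for siCAG and 1 for siNT1 in PC3 and 1 for the time interaction, beside 8.96, 1.24, 0.396 and 0.00930% of all genes. Leaving out the siCAG libraries was an alternative chosen after seeing the data. It gave 0 for siGGGGGC in PC3 and in HeyA8, beside 8.04 and 3.52% of all genes. Since 24 and 48 h stand for the replicates here, the time term is the replicate block. Without this block 0 members were called for siGGGGGC in PC3 and 28 for mock PC3 against HeyA8, beside 4.13 and 49.2% of all genes, and no other count of members moved. The cause of these differences was not tested.

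Leaving out 1 library at a time, which assumes that a lone library varies like the other groups, gave 0 to 14 members for siGGGGGC in PC3 (14 beside 23.5% of all genes), 0 to 1 for siCAG in PC3 (1 beside 0.796% of all genes), 0 to 12 for siCAG in HeyA8 (12 beside 31.5%), 0 to 2 for time in HeyA8 (2 beside 0.0771%), 0 to 7 for the siCAG interaction (7 beside 9.24% of all genes) and 20 to 25 for mock PC3 against HeyA8. Some log2 fold changes of siGGGGGC in PC3 changed sign. With mock as the control they were 0.14 for COL17A1, 0.34 for COL1A1, 0.45 for COL5A1, 0.12 for COL6A2 and 0.75 for VCAN. Without 1 siGGGGGC or siNT1 library they ran from -0.90 to 0.28 for COL4A2, from -0.87 to 0.12 for COL6A2 and from -0.92 to 0.090 for COL6A3, positive in each case without the 48 h siGGGGGC library. Over the 96 results for single genes and their alternatives, 764 of 974 values kept direction and side of the threshold. Of the 66 results that were called, 26 lost their call in no alternative run for them. A fit of the mock libraries alone used 1 time term for both lines, since a term for each left no residual degrees of freedom, and called 30 of 37 members (81.1%), beside 74.9% of all genes. Members with means under 1 CPM rest on few counts, and no difference in them would be detectable at this depth unless large.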
